A study of Homo sapiens with 9 samples.

Results

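The 9 genes described here belong to the NRF2 antioxidant pathway and were followed in MDA-MB-231 cells with and without knockdown of the aryl hydrocarbon receptor gene AHR. They were taken by gene symbol from a count table that lists 60649 genes, and all 9 passed the filter on low counts that left 14274 genes. They comprise the transcription factor NRF2 itself (NFE2L2), its inhibitor KEAP1, and 7 genes that NRF2 is known to activate: NQO1, HMOX1, GCLC, GCLM, TXNRD1, SRXN1 and SLC7A11.

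NRF2 is made continuously in most cells and is marked for destruction by KEAP1, which holds it on a ubiquitin ligase built around CUL3. Electrophiles and oxidants modify KEAP1, so that NRF2 escapes, pairs with a small MAF protein and binds antioxidant response elements in its target genes. The targets make and recycle glutathione and thioredoxin, reduce quinones, break down heme and supply NADPH. Much of this control acts on NRF2 protein, which RNA counts do not measure. NQO1 also belongs to the classical battery of genes that AhR, a ligand-activated transcription factor, can induce through xenobiotic response elements, and NFE2L2 is itself known as an AhR target.

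The cell line MDA-MB-231 comes from a human triple-negative breast cancer, and the series held 9 RNA sequencing libraries of it in 3 groups of 3. The control cells carried the lentiviral vector pLKO-GFP (PLKO-GFP in the labels), and the other groups carried shAHR#2 or shAHR#3, each a short hairpin RNA against AHR. According to the study's methods, transduced cells were selected with puromycin and the survivors of each transduction were pooled, so each group was a mixed population and not a clone. The treatment label was the same for all 9 libraries and named no AhR ligand. The hairpins are called here as the labels number them, since the methods number their AHR hairpins differently. Replicates are numbered but not said to come from separate cultures, so p-values measure the spread between these libraries, which may be technical.

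Libraries held from 15991396 to 20374460 counted reads. Levels are given as CPM, the reads of a gene relative to all reads counted in its library after TMM scaling, a library size correction from edgeR. Adjusted p-values are from edgeR's quasi-likelihood test, adjusted over the 14274 genes by the Benjamini-Hochberg method, and a gene was called changed when this p was under 0.05. AHR was at 118 ± 3.32 CPM (SD, n = 3) with pLKO-GFP, 41.6 ± 1.07 with shAHR#2 and 47.7 ± 3.99 with shAHR#3, so it was lower in every knockdown library than in every control library. On the log2 scale AHR changed by -1.50 (adjusted p = 1.05e-25) with shAHR#2, and by -1.31 (adjusted p = 4.95e-24) with shAHR#3. VIM was at 2615 CPM or more in every library and KRT18 at 297 CPM or more, while PGR had 0 reads and ESR1 at most 4. The epithelial markers KRT8 and KRT19 were at 275 and 96.5 CPM or more. EPCAM and CDH1, also epithelial markers, were low, at 5.26 to 7.15 and 0.70 to 4.59 CPM. ERBB2 was at 60.0 to 75.7 CPM. Of the other cell types' markers, CD3E had 0 reads and CDH5 at most 12, while PECAM1 had 43 to 257, PTPRC 1 to 33 and CD14 4 to 21, and their part in the results was not tested.

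The 9 genes lie on 9 chromosomes, and several have letters of known response elements before their starts. RefSeq promoter entries (GRCh38.p14) matched 7 of the 9 genes with 10 transcription starts, and HMOX1 and SLC7A11 had no entry. The 1000 bases before each start were searched on both strands for TGACNNNGC, the core of the antioxidant response element, for TGACTCAGC, the form known from NQO1, and for TNGCGTG, the core of the xenobiotic response element. Every TGACTCAGC is also a TGACNNNGC and contains TGACTCA, the AP-1 motif. The sites below, 1 for each gene with a match, show these letters beside the genes whose counts follow. Each is read 5′ to 3′ on the strand of its gene with 10 bases to either side, in capitals where the motif matched. The GCLM, GCLC and TXNRD1 sites run in the opposite orientation to their genes, so their capitals are the reverse complement of the motif.
NQO1, chr16:69726997-69727025, minus strand: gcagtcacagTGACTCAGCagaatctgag
GCLM, chr1:93909446-93909474, minus strand: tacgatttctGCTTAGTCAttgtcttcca
GCLC, chr6:53545953-53545981, minus strand: acaggtcattGCTCTGTCAacacatattt
TXNRD1, chr12:104286920-104286948, plus strand: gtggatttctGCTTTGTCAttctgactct
KEAP1, chr19:10502807-10502835, minus strand: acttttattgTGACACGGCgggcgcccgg
NFE2L2, chr2:177264252-177264278, minus strand: ctgagcccgcTCGCGTGggccttgggg
The NQO1 element lay 455 bases before the start, the GCLM element 34, the TXNRD1 element 102 before the downstream of its starts, the KEAP1 element 54 before the downstream of its starts and the GCLC element 870. The NFE2L2 site is a TNGCGTG match 137 bases before a start. Further matches are not printed above. KEAP1 had a TGACNNNGC match 31 bases and a TNGCGTG match 191 bases before the same start. TXNRD1 had a TGACNNNGC match 99 bases before its other start, and NFE2L2 a TNGCGTG match 782 bases before its other start. TGACNNNGC was found before 6 of the 10 starts against 31.9% of 35116 starts genome-wide, TGACTCAGC before 1 of 10 (NQO1) against 1.42%, and TNGCGTG before 3 of 10 (both NFE2L2 starts and 1 of KEAP1) against 16.7%. These are matches of letters in this window, and binding was not measured.

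With knockdown of AHR, NQO1 and TXNRD1 fell with both hairpins and HMOX1 rose with both. Most of the 9 genes, NQO1 and HMOX1 included, differed in level between the hairpins. With shAHR#2, 4 of the 9 were higher than in the control (HMOX1, GCLC, GCLM and SLC7A11) and 5 were lower (NFE2L2, KEAP1, NQO1, TXNRD1 and SRXN1). Of all 14274 genes tested, 32.6% were called higher and 33.2% lower in that comparison. With shAHR#3, 2 were higher (HMOX1 and GCLM), 2 were lower (NQO1 and TXNRD1) and 5 were not called, against 26.9% called higher and 27.5% called lower among all genes. Calls were thus common across the transcriptome, and the sizes of the changes tell the genes apart more than the calls do. A called change of at least 2-fold was reached by 2 genes with shAHR#2 (NQO1 and SRXN1), against 11.8% of all genes. With shAHR#3 it was reached by 0 of the 9, with edgeR and with DESeq2 alike, against 6.73% of all genes. In that comparison 5 of the 9 had an unadjusted p under 0.05 with edgeR and 4 with DESeq2. The share of all genes under that unadjusted threshold was not counted, so these 2 counts do not set the 9 genes apart. The median log2 fold change of the 9 genes was -0.08 with shAHR#2 and -0.07 with shAHR#3, beside -0.0032 and -6.9e-05 over all genes tested. Both comparisons use the same 3 control libraries. Tested directly, shAHR#3 against shAHR#2, 3 of the 9 genes were higher with shAHR#3 (KEAP1, NQO1 and SRXN1) and 4 were lower (HMOX1, GCLC, GCLM and SLC7A11), against 21.9% called higher and 20.4% called lower among all genes, and this comparison shares its libraries with the other two.

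**Figure D1:**
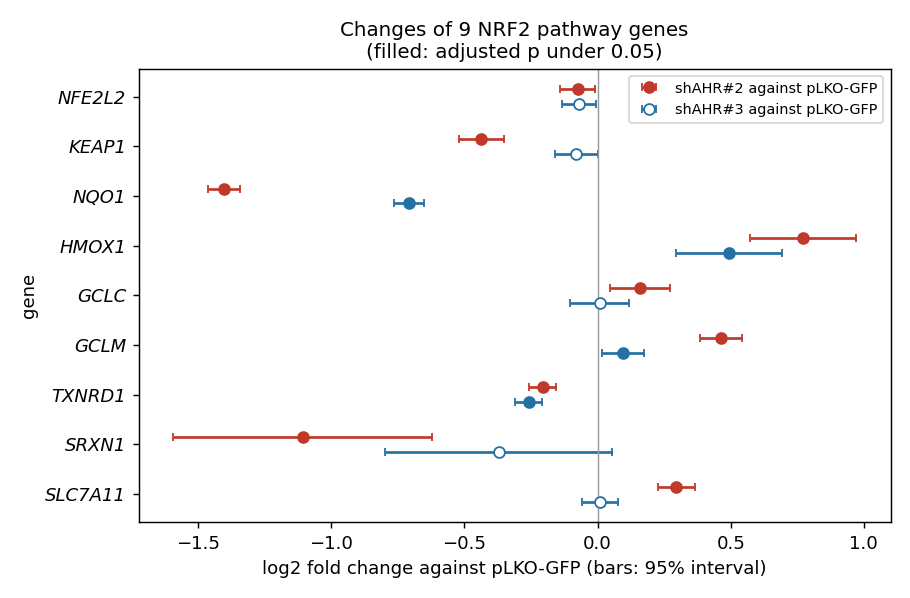
Log2 fold change of each of the 9 genes (vertical axis) with shAHR#2 (red) and shAHR#3 (blue) against pLKO-GFP, with 95% intervals as bars and filled points where the adjusted p was under 0.05. NQO1 lies at -1.40 and -0.71 with narrow intervals, HMOX1 at 0.77 and 0.49, and the GCLC and SLC7A11 points for shAHR#3 lie at 0.01.

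NFE2L2 (ENSG00000116044.16, chromosome 2 from 177218667 to 177392756, minus strand) encodes NRF2, and its RNA moved little. Its levels were 157, 155 and 152 CPM in the control libraries, 148, 150 and 141 with shAHR#2, and 150, 144 and 148 with shAHR#3. Every knockdown library was below every control library, and the hairpins overlapped each other. The log2 fold change with shAHR#2 was -0.08 (SE 0.03, adjusted p = 0.0437), a level of 94.9% ± 3.15 (SD, n = 3) of the control mean. The call was lost with DESeq2 (adjusted p = 0.0944) and in 7 of the other alternatives, and over all 15 of them the adjusted p ran from 0.0314 to 0.288. With shAHR#3 the value was -0.07 (SE 0.03, adjusted p = 0.0668), and the hairpins differed by 0.01 (95% interval -0.06 to 0.07). In the annotation 23.4% of the exon length of NFE2L2 is also exon of HNRNPA3 on the opposite strand, which had 6882 to 8553 reads, and whether the counting used strand is not given in the sources used here.

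KEAP1 (ENSG00000079999.14, chromosome 19 from 10486125 to 10503558, minus strand), the inhibitor, fell with shAHR#2. It was at 82.8, 85.8 and 83.5 CPM in the control libraries, at 62.4, 63.4 and 60.5 with shAHR#2 and at 80.1, 76.2 and 82.1 with shAHR#3. The shAHR#2 libraries stood well below all the others, and the shAHR#3 libraries lay just below the controls without overlap. Its log2 fold change was -0.44 with shAHR#2 (SE 0.04, adjusted p = 1.44e-11), which is 73.9% ± 1.72 of the control mean (SD, n = 3), and -0.08 with shAHR#3 (SE 0.04, adjusted p = 0.0853). In the direct comparison KEAP1 was higher with shAHR#3 than with shAHR#2 by 0.36 (SE 0.04, adjusted p = 6.10e-09). Without shAHR#3 replicate 3 the value for shAHR#3 against the control became -0.10 with an adjusted p of 0.0354, the lowest of its alternatives (up to 0.346).

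Since both genes are counted in the same library, their ratio does not depend on depth. There were 1.84 ± 0.0461 NFE2L2 reads for each KEAP1 read with pLKO-GFP (SD, n = 3), 2.36 ± 0.0253 with shAHR#2 and 1.85 ± 0.0464 with shAHR#3. All shAHR#2 ratios, from 2.33 to 2.38, exceeded all control ratios, from 1.81 to 1.89, and the shAHR#3 ratios overlapped the control. The log2 ratio differed from the control by 0.36 with shAHR#2 (exact permutation test, two-sided, p = 0.1) and by 0.01 with shAHR#3 (exact permutation test, p = 1.0), and 0.1 is the smallest p that 3 against 3 libraries allow.

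NQO1 (ENSG00000181019.13, chromosome 16 from 69706996 to 69726668, minus strand) encodes a reductase that takes quinones to hydroquinones without a radical step. In the control libraries it was at 296, 302 and 305 CPM, with shAHR#2 at 116, 114 and 111, and with shAHR#3 at 183, 185 and 184. The groups formed 3 separate levels without overlap, with the control highest and shAHR#2 lowest. Relative to the control mean, NQO1 was at 37.8% ± 0.698 with shAHR#2 and at 61.2% ± 0.373 with shAHR#3 (SD, n = 3 each). The log2 fold change was -1.40 with shAHR#2 (SE 0.03, adjusted p = 3.32e-31) and -0.71 with shAHR#3 (SE 0.03, adjusted p = 2.42e-22), that is 2.65-fold and 1.63-fold lower. A fall at least as large was seen in 2.91% of all genes tested with shAHR#2 and in 4.90% with shAHR#3. Between the hairpins NQO1 was higher with shAHR#3 by 0.69 (SE 0.03, adjusted p = 1.89e-20). The RNA here is that of pooled cells, in which fewer cells expressing a gene and less RNA per cell cannot be told apart.

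HMOX1 (ENSG00000100292.18, chromosome 22 from 35380361 to 35394214, plus strand) encodes heme oxygenase 1, the inducible enzyme that opens the heme ring, and it moved the other way from NQO1. It was counted at 10.3, 9.49 and 10.3 CPM in the control libraries, at 15.7, 18.4 and 17.5 with shAHR#2, and at 12.2, 15.8 and 14.3 with shAHR#3. Every knockdown library was above every control library, and the hairpins overlapped each other. With shAHR#2 the log2 fold change was 0.77 (SE 0.10, adjusted p = 1.02e-08), a level of 171% ± 13.8 of the control mean, and with shAHR#3 it was 0.49 (SE 0.10, adjusted p = 5.41e-05), a level of 141% ± 17.6 (SD, n = 3 each). The SE is about 3 times that of NQO1, on 182 to 308 reads a library. HMOX1 was lower with shAHR#3 than with shAHR#2 by 0.28 on the log2 scale (-0.28, SE 0.09, adjusted p = 0.0131). That call was lost without shAHR#2 replicate 2 (adjusted p = 0.0815) and without shAHR#3 replicate 1 (0.127, the highest of its 15 alternatives, the lowest being 0.00296).

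**Figure D2:**
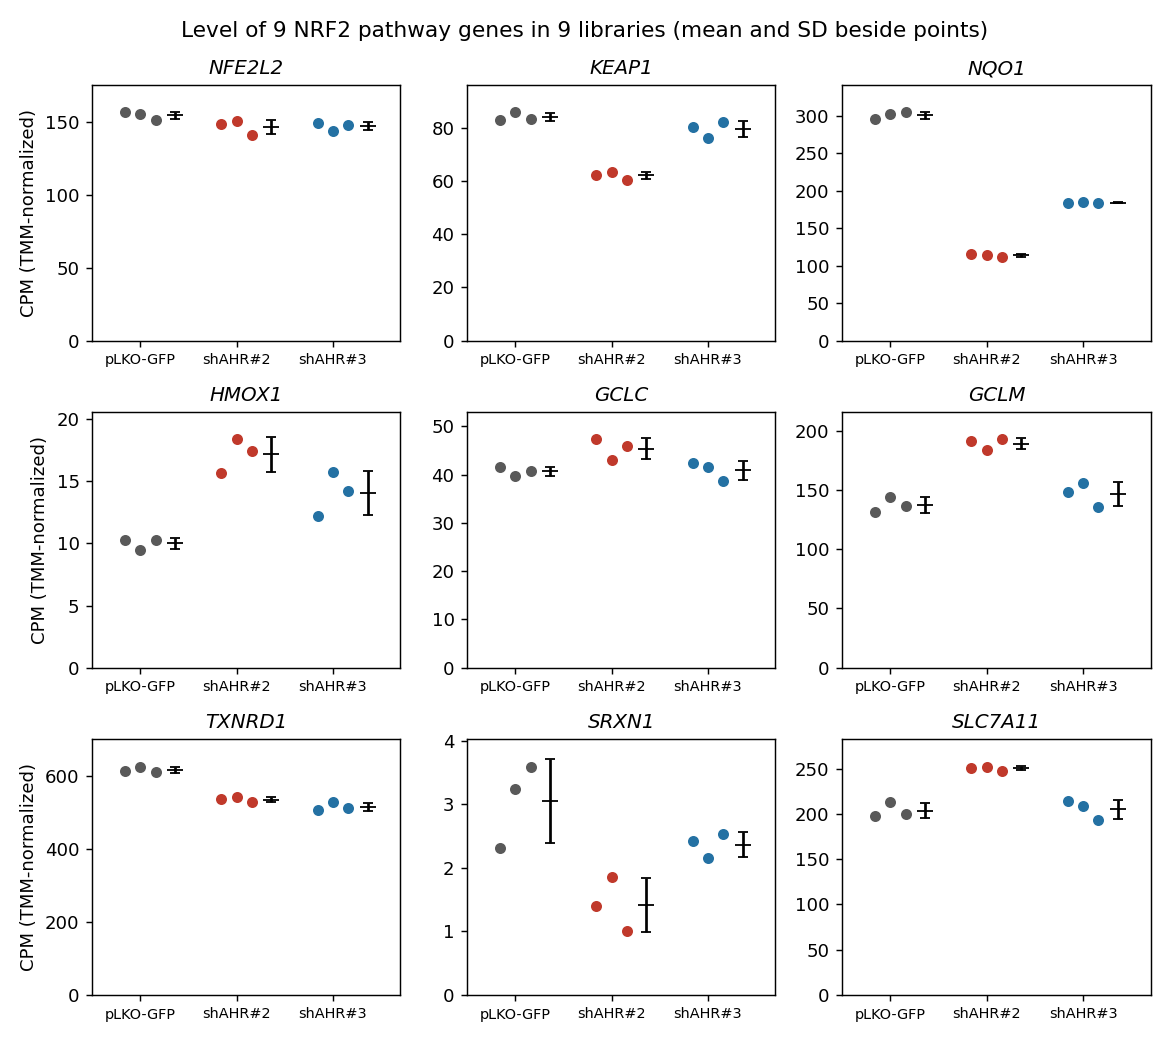
TMM-scaled CPM (vertical axes, from 0) of the 9 genes in the 9 libraries, 1 panel a gene, with a point for each replicate and the mean and SD beside the points. NQO1 forms 3 separate levels at 301, 114 and 184 CPM, KEAP1, GCLM and SLC7A11 stand apart with shAHR#2, and SRXN1 lies at 3.60 CPM or less throughout.

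SLC7A11, GCLC and GCLM, which serve glutathione synthesis, rose with shAHR#2, and with shAHR#3 they lay within 0.10 of the control on the log2 scale. SLC7A11 (ENSG00000151012.13, chromosome 4 from 138164097 to 138242349, minus strand) encodes the cystine importer xCT, which brings in the scarce building block of glutathione. It was at 198, 214 and 200 CPM in the control libraries, at 251, 252 and 248 with shAHR#2, and at 214, 209 and 193 with shAHR#3. All shAHR#2 libraries were above all the others, and shAHR#3 overlapped the control. SLC7A11 changed by 0.30 on the log2 scale with shAHR#2 (SE 0.03, adjusted p = 6.97e-10) and 0.01 with shAHR#3 (95% interval -0.06 to 0.08, adjusted p = 0.830). The direct difference, shAHR#3 against shAHR#2, was -0.29 (SE 0.03, adjusted p = 4.01e-09). The 50 tested genes nearest to SLC7A11 on chromosome 4 had a median log2 fold change of -0.44 with shAHR#2 and -0.27 with shAHR#3, so with shAHR#2 SLC7A11 rose in a region whose genes were mostly lower. Over all 535 tested genes of chromosome 4 the medians were -0.30 and -0.23, so lower values were not confined to this region.

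GCLC and GCLM encode the catalytic and the modifier subunit of glutamate-cysteine ligase, the first and limiting enzyme of glutathione synthesis. GCLM (ENSG00000023909.10, chromosome 1 from 93885199 to 93909456, minus strand) was at 131, 144 and 136 CPM in the control libraries, at 191, 184 and 193 with shAHR#2, and at 149, 156 and 136 with shAHR#3. It was highest in the shAHR#2 libraries, and the shAHR#3 libraries overlapped the control. Its log2 fold change was 0.46 with shAHR#2 (SE 0.04, adjusted p = 4.15e-13) and 0.09 with shAHR#3 (SE 0.04, adjusted p = 0.0402). The call with shAHR#3 was lost with DESeq2 (adjusted p = 0.0871) and without pLKO-GFP replicate 1 (0.226) or 3 (0.109) or shAHR#3 replicate 1 (0.0980) or 2 (0.320), over 15 alternatives from 5.76e-04 to 0.320. Against shAHR#2, GCLM was lower with shAHR#3, at -0.37 (SE 0.04, adjusted p = 3.67e-10).

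GCLC (ENSG00000001084.13, chromosome 6 from 53497341 to 53616970, minus strand) was at 41.5, 39.7 and 40.9 CPM in the control libraries, at 47.3, 43.0 and 45.9 with shAHR#2, and at 42.4, 41.6 and 38.7 with shAHR#3. The shAHR#2 libraries were above the control without overlap, by a smaller margin than for GCLM. GCLC changed by 0.16 on the log2 scale with shAHR#2 (SE 0.05, adjusted p = 0.0107) and 0.01 with shAHR#3 (95% interval -0.10 to 0.12, adjusted p = 0.920), with a direct difference of -0.15 (SE 0.05, adjusted p = 0.0223). Without shAHR#2 replicate 1, the highest library, the adjusted p for shAHR#2 against the control was 0.0675 (0.00448 to 0.0675 over the alternatives). The call of the direct difference was lost without shAHR#2 replicate 1 (0.141) or 3 (0.0683) or shAHR#3 replicate 3 (0.116), over alternatives from 0.0126 to 0.141.

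There were 3.38 ± 0.240 GCLM reads for each GCLC read with pLKO-GFP (SD, n = 3), 4.17 ± 0.121 with shAHR#2 and 3.58 ± 0.140 with shAHR#3. The shAHR#2 ratios, from 4.04 to 4.28, were above the control ratios, from 3.16 to 3.63. The log2 ratio differed from the control by 0.31 with shAHR#2 (exact permutation test, two-sided, p = 0.1, the smallest possible) and by 0.09 with shAHR#3 (exact permutation test, p = 0.3).

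**Figure D3:**
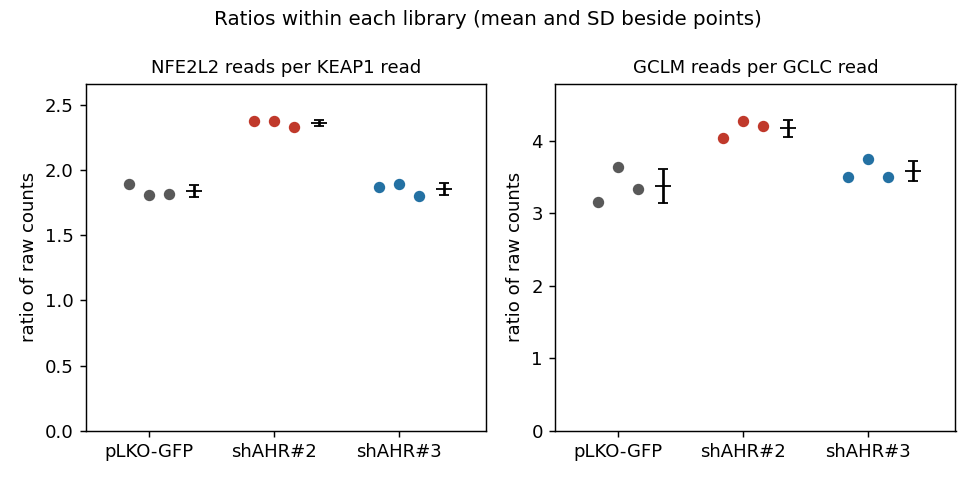
Reads of NFE2L2 for each KEAP1 read (left) and of GCLM for each GCLC read (right) in the 9 libraries, as ratios of raw counts on axes from 0, with the mean and SD beside the points. The shAHR#2 libraries lie above the others in both panels, at 2.33 to 2.38 and at 4.04 to 4.28.

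TXNRD1, the cytosolic thioredoxin reductase, fell modestly with both hairpins. TXNRD1 (ENSG00000198431.16, chromosome 12 from 104215779 to 104350307, plus strand) was at 614, 627 and 613 CPM in the control libraries, at 537, 542 and 529 with shAHR#2, and at 507, 529 and 514 with shAHR#3. Both knockdown groups were below the control without overlap and overlapped each other. The log2 fold change was -0.21 with shAHR#2 (SE 0.03, adjusted p = 4.67e-09) and -0.26 with shAHR#3 (SE 0.03, adjusted p = 3.39e-11), which are 86.7% ± 1.10 and 83.6% ± 1.80 of the control mean (SD, n = 3 each). The direct difference of -0.05 (95% interval -0.10 to -0.0012, adjusted p = 0.0947) was not called, and it was called without shAHR#3 replicate 2 (adjusted p = 0.0446, the lowest of its 15 alternatives, the highest being 0.338).

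SRXN1 encodes sulfiredoxin, which restores over-oxidized peroxiredoxins, and had few reads. SRXN1 (ENSG00000271303.2, chromosome 20 from 646615 to 653200, minus strand) had 41, 65 and 71 reads in the control libraries, 26, 29 and 16 with shAHR#2, and 47, 42 and 52 with shAHR#3. As CPM these were 2.32, 3.25 and 3.60, then 1.39, 1.86 and 1.01, then 2.42, 2.15 and 2.54. The shAHR#2 libraries were below all the others, and the shAHR#3 libraries overlapped the control. SRXN1 changed by -1.11 on the log2 scale with shAHR#2 (SE 0.24, adjusted p = 1.17e-04) and -0.37 with shAHR#3 (SE 0.21, 95% interval -0.80 to 0.06, adjusted p = 0.136), with a direct difference of 0.74 (SE 0.25, adjusted p = 0.0155).

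Leaving out single libraries changed calls of SRXN1. Without pLKO-GFP replicate 1 the fall with shAHR#3 was called, at -0.53 (adjusted p = 0.0438, the lowest of 14 alternatives, the highest being 0.434). The direct difference lost its call without shAHR#2 replicate 3 (0.0968) or shAHR#3 replicate 3 (0.0501), over alternatives from 0.00624 to 0.0968. In the annotation 90.7% of the exon length of SRXN1 is also exon of another gene on the same strand (ENSG00000270299), which had 0 reads in every library, and whether reads in shared exons were counted is not given in the sources used here, so the level of SRXN1 is uncertain. Over the 382 tested genes of chromosome 20 the median log2 fold change was -0.31 with shAHR#2 and -0.14 with shAHR#3. The 34 tested genes nearest to SRXN1 there had medians of -0.50 and -0.26, and their part in the SRXN1 values was not tested. Around NQO1 the corresponding medians were -0.02 and -0.04, around HMOX1 0.03 and 0.09, around GCLM 0.16 and 0.05, around KEAP1 0.03 and 0.12, around GCLC -0.16 and -0.13, and around TXNRD1 -0.10 and 0.05. Around NFE2L2 they were -0.05 and -0.07, beside -0.08 and -0.07 for NFE2L2 itself.

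Between genes, levels were compared per kilobase of all annotated exons. In the control NQO1 was highest at 101 ± 1.50 CPM per kb (SD, n = 3), followed by TXNRD1 at 92.1 ± 1.16, GCLM at 25.3 ± 1.22, KEAP1 at 23.5 ± 0.447, SLC7A11 at 21.1 ± 0.898, NFE2L2 at 10.3 ± 0.170, GCLC at 4.72 ± 0.106, HMOX1 at 4.34 ± 0.198 and SRXN1 at 1.21 ± 0.262. The abundant transcripts were thus those of the quinone and thioredoxin reductases. Neighbours in this order did not overlap between the control libraries, nor between the shAHR#2 libraries, while KEAP1 and SLC7A11 overlapped between the shAHR#3 libraries. With shAHR#2 NQO1 was at 38.3 ± 0.708 CPM per kb and TXNRD1 at 79.9 ± 1.01, and with shAHR#3 at 62.0 ± 0.378 and 77.0 ± 1.65, so NQO1 was second in both knockdown groups. HMOX1 was at 7.44 ± 0.597 and 6.11 ± 0.766 CPM per kb in the knockdown groups, above GCLC at 5.27 ± 0.257 and 4.75 ± 0.225. The order depends on which exons are counted as length: over the longest transcript alone, 3 of the 9 genes kept their place in the control and TXNRD1 came first at 155 CPM per kb, before NQO1 at 119.

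The wider pathway was described with gene lists written from general knowledge. Apart from the 9 genes the lists held 91 genes, of which 89 were tested. With shAHR#2, 32 of these were higher and 32 lower, and with shAHR#3, 27 were higher and 34 lower, with median log2 fold changes of -0.02 and 0.02. These shares, 35.96% and 35.96% with shAHR#2 and 30.3% and 38.2% with shAHR#3, stand beside the 32.6%, 33.2%, 26.9% and 27.5% of all genes tested.

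Among 15 genes that control NRF2, NFE2L2 and KEAP1 included, 7 were higher and 5 lower with shAHR#2, and 5 were higher and 1 lower with shAHR#3 (median log2 fold changes 0.09 and 0.08). NFE2L3, which encodes the related factor NRF3, rose from 191 ± 3.45 CPM to 325 ± 3.24 in the shAHR#2 cells and 304 ± 11.3 in the shAHR#3 cells (SD, n = 3 each), which gave log2 changes of 0.77 and 0.67 (adjusted p = 2.53e-23 and 3.80e-21). BACH1, a repressor that occupies the same DNA elements and is best known for holding HMOX1 down, rose from 46.1 ± 2.19 to 76.9 ± 1.09 and 55.1 ± 3.24 CPM, changes of 0.74 and 0.26 (adjusted p = 3.60e-16 and 3.40e-05). HMOX1 and BACH1 RNA were thus both higher in the knockdown cells. BTRC, a substrate adaptor of another ligase that acts on NRF2, was lower, at -0.35 and -0.34 (adjusted p = 4.14e-06 and 6.27e-06).

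Of 13 genes for quinones, carbonyls, heme and iron, NQO1 and HMOX1 included, 8 were lower with shAHR#2 and 10 with shAHR#3, and 2 were higher with each (HMOX1 and SLC48A1), with medians of -0.30 and -0.18. Over all genes tested, 33.2% were called lower and 32.6% higher with shAHR#2, and 27.5% and 26.9% with shAHR#3. HMOX2, the constitutive heme oxygenase, fell from 23.2 ± 1.64 to 13.8 ± 0.969 and 16.6 ± 1.25 CPM, changes of -0.75 and -0.48 (adjusted p = 6.84e-10 and 2.61e-06). BLVRA, which reduces the biliverdin that heme oxygenases release, fell from 39.8 ± 2.39 to 22.1 ± 0.994 and 33.8 ± 1.71 CPM, changes of -0.85 and -0.24 (adjusted p = 5.48e-14 and 0.00117). BLVRB, the other biliverdin reductase listed, was not called, at 0.14 and 0.03 (adjusted p = 0.104 and 0.728). The heme transporter SLC48A1 rose by 0.60 and 0.40 (adjusted p = 1.56e-07 and 1.70e-04), as HMOX1 did. BLVRB was named after its values were seen.

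Glutathione genes did not share a direction. Of 24 listed, 22 were tested, and 8 were higher and 10 lower with shAHR#2, and 5 higher and 11 lower with shAHR#3 (medians -0.13 and -0.05). Among those averaging 1 or more in log2 CPM and called in the same direction with both hairpins, the largest mean rises were those of CHAC1, which breaks glutathione down inside the cell, from 2.64 ± 0.495 to 7.34 ± 0.989 and 3.97 ± 0.624 CPM (1.47 and 0.58, adjusted p = 7.22e-10 and 0.00591), and of GGT5, a gamma-glutamyltransferase, from 23.1 ± 0.880 to 44.5 ± 2.95 and 42.5 ± 2.51 CPM (0.95 and 0.88, adjusted p = 9.91e-16 and 1.21e-14). The glutaredoxins GLRX2 (-0.67 and -0.62, adjusted p = 1.55e-08 and 5.75e-08) and GLRX3 (-0.60 and -0.36, adjusted p = 1.68e-15 and 4.44e-10) had the largest mean falls by the same rule. Among the other listed glutaredoxins, GLRX went from 31.5 ± 2.17 to 48.2 ± 1.54 and 34.5 ± 1.44 CPM. GLRX5 went from 48.5 ± 1.55 to 46.1 ± 1.64 and 49.7 ± 2.02 CPM, so the glutaredoxins did not fall together. Without shAHR#3 replicate 3 the CHAC1 call with shAHR#3 was lost (adjusted p = 0.0591, the highest of its 15 alternatives, the lowest being 0.00336). CHAC2, the other CHAC gene listed, went the other way, from 15.1 ± 1.81 to 11.8 ± 1.01 and 11.6 ± 1.03 CPM. In the thioredoxin and peroxiredoxin list of 17, 7 were higher and 6 lower with shAHR#2 and 4 higher and 6 lower with shAHR#3 (medians -0.02 and -0.06). In this list the sestrins SESN3 (0.62 and 0.75, adjusted p = 0.00329 and 4.20e-04) and SESN1 (0.51 and 0.36, adjusted p = 8.53e-04 and 0.0165) rose, and the methionine sulfoxide reductase MSRA (-0.55 and -0.42, adjusted p = 2.36e-04 and 0.00326) and the mitochondrial peroxiredoxin PRDX3 (-0.20 and -0.08, adjusted p = 6.66e-08 and 0.0126) fell. SESN3 had 46 to 65 reads in the control libraries, 62 to 83 with shAHR#2 and 86 to 102 with shAHR#3. SESN2, the other sestrin listed, was at 1.62 ± 0.157 CPM with pLKO-GFP, 2.01 ± 0.293 with shAHR#2 and 1.28 ± 0.276 with shAHR#3. CHAC2, GLRX, GLRX5 and SESN2 were named after their values were seen. With shAHR#3 the SESN1 call was lost without pLKO-GFP replicate 1 (0.0591) or shAHR#3 replicate 2 (0.125) or 3 (0.0753), over alternatives from 7.72e-04 to 0.125, and the PRDX3 call without pLKO-GFP replicate 2 (0.0885), over alternatives from 0.00891 to 0.0885.

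In the list of 10 genes that supply NADPH, 6 were higher and 1 lower with shAHR#2 and 5 higher and 1 lower with shAHR#3 (medians 0.16 and 0.14). For this list and the next, 32.6% of all genes tested were called higher and 33.2% lower with shAHR#2. With shAHR#3 these shares were 26.9% and 27.5%. Cytosolic IDH1, which makes NADPH from isocitrate, rose, with log2 changes of 0.40 and 0.28 (adjusted p = 3.23e-11 and 1.06e-07). Mitochondrial IDH2 was the member called lower, from 20.1 ± 1.00 to 7.25 ± 0.475 and 16.6 ± 0.309 CPM (-1.48 and -0.28, adjusted p = 1.03e-16 and 0.00281). Of the 4 superoxide dismutases and catalase, 3 were higher with each hairpin, and SOD1 was not called, at 0.05 with each. Extracellular SOD3 rose from 6.48 ± 0.439 to 24.6 ± 1.59 and 14.3 ± 1.24 CPM (1.92 and 1.14, adjusted p = 9.07e-20 and 3.12e-12) and mitochondrial SOD2 from 113 ± 3.38 to 207 ± 4.48 and 147 ± 5.01 CPM (0.87 and 0.37, adjusted p = 4.23e-23 and 7.16e-12).

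Of 21 other well-known NRF2 targets, 6 were higher and 7 lower with shAHR#2, and 7 were higher and 7 lower with shAHR#3 (medians -0.10 and 0.05). OSGIN1, an oxidative stress-induced growth inhibitor, fell alike with both, from 6.94 ± 1.30 to 3.10 ± 0.347 and 2.93 ± 0.492 CPM (-1.16 and -1.25, adjusted p = 1.26e-07 and 3.03e-08). EPHX1, microsomal epoxide hydrolase, fell from 51.3 ± 2.18 to 16.02 ± 1.05 and 35.3 ± 0.596 CPM (-1.67 and -0.54, adjusted p = 4.58e-23 and 1.92e-10). AKR1C3, an aldo-keto reductase, rose from 17.9 ± 1.20 to 21.7 ± 2.45 and 38.3 ± 1.40 CPM (0.27 and 1.10, adjusted p = 0.00345 and 1.37e-15), and reads shared with its close paralogs make its counts uncertain. Without shAHR#2 replicate 3 its call with shAHR#2 was lost, at 0.19 (adjusted p = 0.0573, the highest of its 15 alternatives, the lowest being 6.33e-04). NQO1 was thus accompanied downwards by EPHX1 and OSGIN1, while AKR1C3 was higher.

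**Figure D4:**
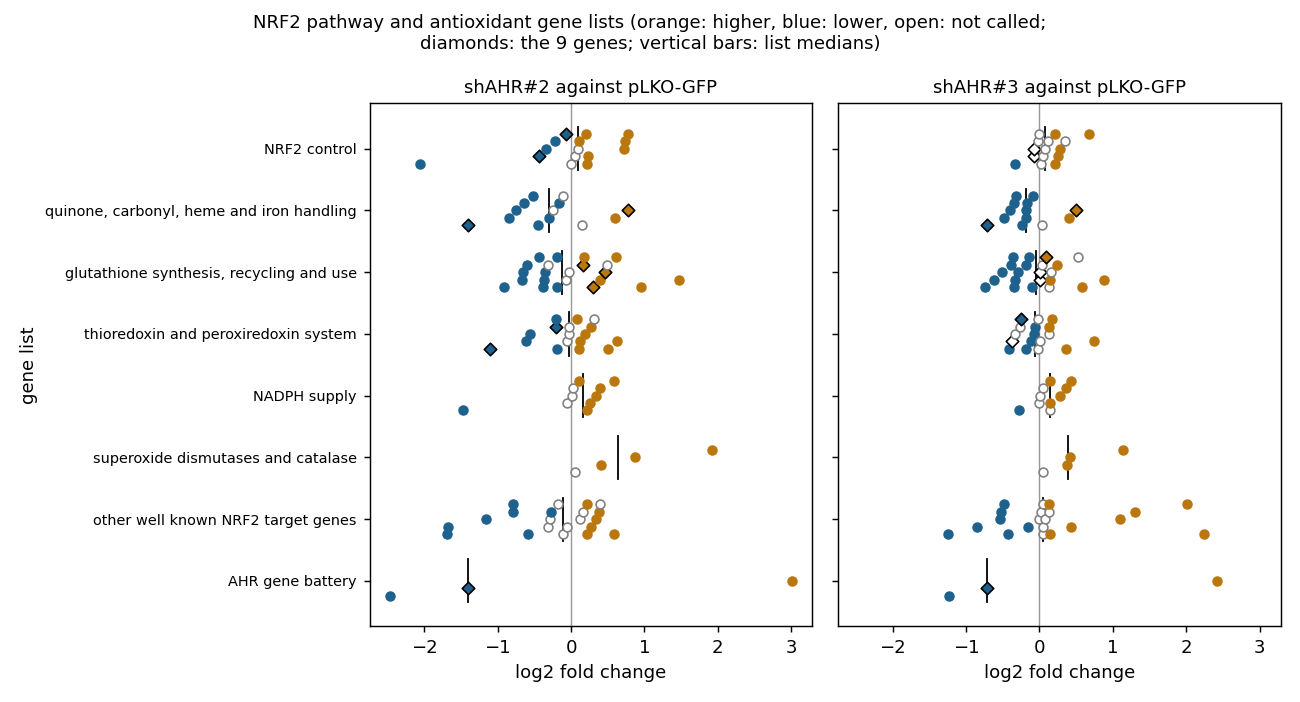
Log2 fold change with shAHR#2 (left) and shAHR#3 (right) against pLKO-GFP of every tested gene in 8 lists (vertical axis), orange where called higher, blue where called lower and open where not called, with diamonds for the 9 genes and a vertical bar at each list's median. Superoxide dismutases and catalase lie at or right of 0 (medians 0.64 and 0.39), and most genes of the quinone, carbonyl, heme and iron list lie left of it (medians -0.30 and -0.18).

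NQO1 was also set beside the other genes of the classical AhR battery. Of 6 such genes 3 were tested, and with each hairpin NQO1 and CYP1A1 were lower and ALDH3A1 was higher. CYP1A1 had 71 to 97 reads in the control libraries, 10 to 19 in the shAHR#2 libraries and 28 to 44 in the shAHR#3 libraries (changes of -2.47 and -1.23, adjusted p = 1.02e-10 and 4.39e-06). ALDH3A1, an aldehyde dehydrogenase, went from 3.50 ± 0.252 CPM to 28.2 ± 0.564 and 18.7 ± 1.17 (3.01 and 2.42, adjusted p = 3.17e-25 and 3.02e-21), so the tested genes of the battery did not move together. CYP1A2 had at most 2 reads in a library, and GSTA1 and UGT1A6 were listed at 0, the latter sharing exons with the other UGT1A genes, so its count is uncertain. Outside the battery, CYP1B1 fell from 169 ± 3.73 to 26.9 ± 1.15 and 124 ± 2.72 CPM (-2.65 and -0.44, adjusted p = 3.52e-35 and 5.78e-14). TIPARP, another AhR target, was at 0.04 with shAHR#2 (adjusted p = 0.344) and fell with shAHR#3, at -0.18 (adjusted p = 2.45e-04). NQO1, CYP1A1 and CYP1B1 were each lower with shAHR#2 than with shAHR#3, with direct differences of 0.69, 1.24 and 2.21 (adjusted p = 1.89e-20, 7.25e-04 and 3.96e-31), while AHR itself differed by 0.19 (adjusted p = 0.00283). ALDH3A1 and TIPARP differed the other way, being higher with shAHR#2. Over 15 alternatives their direct differences ran from -0.64 to -0.55 (adjusted p up to 9.50e-07) and from -0.25 to -0.20 (up to 6.02e-04). Without shAHR#3 replicate 2 the AHR difference was 0.13 and not called (adjusted p = 0.0626, the highest of its 15 alternatives, the lowest being 3.27e-04).

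The genes whose levels ran most like NQO1 over the 9 libraries, by Pearson's r of log2 CPM, were CNBP (0.999), CCNI (0.998) and PEA15 (0.998). The 9 libraries fall into 3 groups, so r mainly reflects the 3 group levels, and 1001 of 11717 genes compared reached 0.95. CNBP was at 280 ± 1.04, 134 ± 0.592 and 190 ± 2.81 CPM with pLKO-GFP, shAHR#2 and shAHR#3 (SD, n = 3 each), and changed by -1.06 and -0.56 on the log2 scale. CCNI changed by -0.70 and -0.36 and PEA15 by -0.77 and -0.36, so these falls were smaller than those of NQO1 and in the same order of groups.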

How the data were processed

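The data are 9 RNA sequencing libraries of MDA-MB-231 cells, 3 in each of 3 groups. The authors prepared stranded mRNA libraries, sequenced single ends and used STAR and GRCh38.p13 for alignment. The deposited values are raw read counts per gene, whole numbers without normalization. The submitters' processing notes also name FastQC, Subread and featureCounts, and the strand setting and annotation release are not given in the sources used here.

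Counts were analysed with R 4.3.3 and edgeR 4.0.16 (limma 3.58.1). Genes were kept by filterByExpr (minimum count 10, total 15), scaled by TMM and fitted once over the 9 libraries with a mean per group. The quasi-likelihood test was Benjamini-Hochberg adjusted over 14274 genes, with a threshold of 0.05. Each SE was the log2 fold change divided by the square root of F. Ratios used exact permutation tests. The paper's tool, DESeq2 (1.42.0), was an alternative, with its size factors, other filters, the compared groups alone, a replicate block, leaving out each library, and stricter thresholds. Both fits were tested on simulated data.

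The members and gene lists were chosen with earlier results of these data known. Besides the 9 genes, the text names AHR, CYP1A1, CYP1B1 and TIPARP, the AhR battery, from each list up to 2 rises and 2 falls shared by both hairpins with an average log2 CPM of 1 or more, and the 3 genes most correlated with NQO1. Some items meeting these rules are not reported here. Replicate counts of a group differed by more than sampling alone gives (chi-square divided by its degrees of freedom, 1.74 to 3.97), and each library was kept as a replicate. Intervals cover the spread between these libraries. Positions are those of GENCODE 44, in which 60463 of 60605 identifiers were found, and promoter sequence is RefSeq's.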

Additional observations from a re-analysis of the deposited data

Results flagged for a closer look

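For 7 of the 9 genes the hairpins differed from each other when shAHR#3 was tested directly against shAHR#2, beside 21.9% of all genes called higher and 20.4% called lower. The log2 difference was positive, with more RNA with shAHR#3, for KEAP1 at 0.36, NQO1 at 0.69 and SRXN1 at 0.74. It was negative for HMOX1 at -0.28, GCLC at -0.15, GCLM at -0.37 and SLC7A11 at -0.29. In 6 of these 7 genes, all but HMOX1, the levels with the hairpins did not overlap. The share of all genes tested without overlap was not counted, and these 7 were already picked by their calls. For NFE2L2 and TXNRD1 the difference did not pass the threshold.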

How the results depend on the processing

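NQO1 kept its direction under every alternative run and its call under each but the 2-fold requirement, which only shAHR#2 against the control met, its log2 fold change ranging from -1.42 to -1.39 with shAHR#2 and from -0.72 to -0.70 with shAHR#3. Requiring a log2 fold change of at least 1 left 1691, 961 and 530 genes in the comparisons of shAHR#2 and shAHR#3 with the control and of shAHR#3 with shAHR#2. Of the 9 genes it left 0 higher and 2 lower in the first, 0 and 0 in the second and 0 and 0 in the third. In the third, 8 of the 9 had an unadjusted p under 0.05 with edgeR and 8 with DESeq2, and the share of all genes at that threshold was not counted. The genes higher with shAHR#3 went from 2 to 1 with DESeq2 or at an adjusted p under 0.01, and ranged from 1 to 2 when a library was left out, GCLM being the one lost. At 0.01 the genes lower with shAHR#3 than with shAHR#2 went from 4 to 2. Small values changed sign. NFE2L2 between the hairpins was -5.8e-05 with DESeq2 and -7.3e-05 with its size factors. When a library was left out it ranged from -0.0180 to 0.0253. In such fits GCLC with shAHR#3 ranged from -0.0154 to 0.0465, SLC7A11 with shAHR#3 from -0.0164 to 0.0516, and the NFE2L2 to KEAP1 log2 ratio with shAHR#3 from -0.0038 to 0.0318. Between the hairpins BTRC ranged from -0.0509 to 0.0660, GLRX2 from -0.0044 to 0.10, SESN3 from -0.0596 to 0.26 and SESN1 from -0.25 to 0.0076. With length taken from the longest transcript, 3 of 9 genes kept their rank. The cause of these moves was not tested. With the replicate number as a block 9406, 7844 and 6107 genes were called against 9390, 7771 and 6031, and the counts of the 9 genes did not move. Deviations from the group means correlated from -0.03 to 0.06 (median 0.03) between same-numbered libraries of different groups. Between differently numbered ones they correlated from -0.07 to 0.06 (median -0.01). With 3 libraries a group, such small correlations cannot settle whether the numbers pair the samples. Depth limits SRXN1 most, at 16 to 71 reads a library.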

Other observations

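Some listed genes outside the rule for named genes were singled out after their values were seen. Of 5 glutathione peroxidases tested, 4 had negative values with both hairpins, called or not: GPX1 (log2 fold changes -0.66 with shAHR#2 and -0.29 with shAHR#3), GPX3 (-0.44 and -0.10), GPX7 (-0.92 and -0.74) and GPX8 (-0.19 and -0.35). Among all genes tested the median log2 fold change was -0.0032 with shAHR#2 and -6.9e-05 with shAHR#3, so negative values were common. The share of genes negative with both hairpins was not counted. The share called lower was 33.2% with shAHR#2 and 27.5% with shAHR#3. GPX7 had few reads, 25 to 57 with pLKO-GFP, 12 to 21 with shAHR#2 and 13 to 27 with shAHR#3. Its shAHR#3 levels overlapped the control. GPX4, which reduces lipid peroxides, was higher with both (0.17 and 0.24), and GPX2 had 0 reads. The ferritin chains, which store iron, were lower with both hairpins, FTH1 at -0.30 and -0.09 and FTL at -0.45 and -0.17, and both have many processed pseudogenes, so their counts are uncertain.

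AKR1C2, an aldo-keto reductase, had 8 to 10 reads in the control libraries, 1 to 4 with shAHR#2 and 33 to 55 with shAHR#3. Its paralog AKR1C1 had 49 to 71, 41 to 68 and 232 to 261 reads. Between the hairpins AKR1C2 differed by 3.94 (adjusted p = 1.69e-09) and AKR1C1 by 1.86 (adjusted p = 4.86e-14) on the log2 scale. These paralogs are near-identical, so how reads were split between them is uncertain. BACH2, a repressor related to BACH1, had 15 to 21 reads with pLKO-GFP, 2 to 7 with shAHR#2 and 21 to 28 with shAHR#3.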
